A study of Mus musculus with 9 samples.

Results

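Cholesterol and fatty acid synthesis genes are described here in N2A cells, a mouse neuroblastoma line, by RNA sequencing. The members are 30 genes listed by symbol, and each was found once in both expression tables, out of 21553 genes with counts. They comprise 6 genes of mevalonate and isoprenoid steps, 10 of squalene and sterol steps, 6 regulators and transport genes, 4 of fatty acid synthesis and 4 desaturases. The list does not hold every enzyme of these pathways.

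All cells were transfected with a pool of small interfering RNAs and harvested 48 hours later. The first experiment has a single library per group: Mbnl1 and Mbnl2 knocked down jointly, Nacc1 knocked down, and a control with non-targeting RNAs. The second has 2 libraries per group: Srrm4 knocked down, Zfp871 knocked down, and a separate non-targeting control. Mbnl1, Mbnl2 and Srrm4 encode splicing regulators, Nacc1 a transcriptional regulator and Zfp871 a zinc finger protein. All groups come from 1 cell line, the knockdowns leave part of each target's RNA, and nothing in the labels says whether the 2 libraries of a group are separate cultures, so p-values measure the spread between these libraries.

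Cells build cholesterol from acetyl-CoA through mevalonate, isoprenoid diphosphates, squalene and lanosterol, and they build fatty acids from the same acetyl-CoA. The transcription factors encoded by Srebf2 and Srebf1 drive many genes of both pathways. Their precursors are held in the endoplasmic reticulum by Scap and the Insig proteins when sterols are plentiful, and move to the Golgi for cleavage when sterols are low. In nervous tissue these pathways supply membrane for growing cells.

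Sterol regulatory factors commonly act at promoters beside NF-Y, which binds CCAAT, and Sp1, which binds GGGCGG. RefSeq promoter windows were present for 23 of the 30 members, in 31 windows. In the 250 bases before the start site, CCAAT was found on either strand in 18 of the 31 member windows (58.1%), against 33.9% of all 32841 windows. GGGCGG was found in 22 member windows (71.0%), against 32.7% of all windows. The letters TCACNCCA, the core of a sterol regulatory element, were found in 2 member windows (6.45%, against 3.68%), those of Srebf2 and Sc4mol. CACGTG, an E-box, was found in 4 (12.9%, against 6.02%). CCAAT and TCACNCCA can share letters, each motif was counted separately, and a match is a description of the window, not a measured binding site. Base composition and expression level were not matched between member windows and all windows. Their part in these shares was not tested.

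Promoter stretches are shown for Srebf2 and Scap, which control the pathway, for Acly, which was called after Srrm4 knockdown, and for Mvd and Fasn as an enzyme of each pathway. They run 5′ to 3′ on the gene's strand, from RefSeq on GRCm38.p6, with the 4 motifs in capitals on either strand. They lie at chr15:82147019-82147180 (Srebf2, plus strand, 162 bases), chr11:100528001-100528250 (Acly, minus), chr9:110333038-110333287 (Scap, plus), chr8:122443423-122443672 (Mvd, minus) and chr11:120824548-120824797 (Fasn, minus). None overlapped an annotated exon, and the Srebf2 window was shortened for this from 250 bases.
Srebf2: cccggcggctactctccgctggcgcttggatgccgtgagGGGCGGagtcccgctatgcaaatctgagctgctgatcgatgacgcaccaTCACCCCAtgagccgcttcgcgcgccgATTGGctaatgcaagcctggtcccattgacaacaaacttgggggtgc
Acly: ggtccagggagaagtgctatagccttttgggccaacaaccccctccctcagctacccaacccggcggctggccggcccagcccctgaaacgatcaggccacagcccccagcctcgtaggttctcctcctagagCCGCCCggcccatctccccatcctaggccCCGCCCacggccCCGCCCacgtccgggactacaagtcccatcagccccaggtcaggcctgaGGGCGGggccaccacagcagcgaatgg
Scap: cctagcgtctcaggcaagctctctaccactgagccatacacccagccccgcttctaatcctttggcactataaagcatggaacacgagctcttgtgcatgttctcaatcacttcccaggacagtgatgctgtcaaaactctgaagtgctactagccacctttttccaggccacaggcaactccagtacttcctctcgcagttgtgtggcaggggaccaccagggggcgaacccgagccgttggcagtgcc
Mvd: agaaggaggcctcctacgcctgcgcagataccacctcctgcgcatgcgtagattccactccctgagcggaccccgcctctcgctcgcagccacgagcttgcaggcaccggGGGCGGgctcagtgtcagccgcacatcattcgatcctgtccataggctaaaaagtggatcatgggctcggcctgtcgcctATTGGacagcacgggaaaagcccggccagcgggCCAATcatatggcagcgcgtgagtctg
Fasn: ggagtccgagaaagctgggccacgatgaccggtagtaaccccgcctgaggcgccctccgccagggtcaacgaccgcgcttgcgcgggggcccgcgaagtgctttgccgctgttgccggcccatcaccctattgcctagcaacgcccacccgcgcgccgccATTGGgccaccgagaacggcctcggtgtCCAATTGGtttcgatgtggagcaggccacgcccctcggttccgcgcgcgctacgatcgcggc
The Srebf2 stretch holds 1 CCAAT, 1 sterol element core and 1 of the 4 GGGCGG of its full window. The Acly stretch holds 4 GGGCGG and no CCAAT, the Mvd stretch 2 CCAAT and 1 GGGCGG, and the Fasn stretch 3 CCAAT, of which 2 on opposite strands overlap each other. The Scap stretch holds none of the 4, while a second RefSeq window of Scap further on (chr9:110333106-110333355), not printed, holds 1 CACGTG and 1 GGGCGG. The window of Idi1, not printed either, holds 2 CCAAT and 1 GGGCGG.

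Library totals were 50086176 to 63715449 counts in the first experiment and 44186088 to 61159670 in the second. Each targeted gene was lowest in its own libraries: Mbnl1 (log2 fold change -1.46), Mbnl2 (-1.85), Srrm4 (-1.59) and Zfp871 (-1.84), and Nacc1 at 52.0 CPM (counts scaled to library size) against 208 in its control. Srrm4 RNA was also at 44.9 and 53.7 CPM in the Zfp871 libraries, against 66.8 and 96.7 in their controls, below both (-0.73, edgeR adjusted p = 0.099). Of 10 neuroblastoma and neuron markers 8 exceeded 1 CPM in every library. Their summed level in the second experiment was 2186 to 2360 CPM in controls, 1730 to 1794 after Srrm4 knockdown and 1547 to 1635 after Zfp871 knockdown, so it moved with the groups, and its part in the results below was not tested. Hepatocyte and adipocyte markers together reached at most 0.201 CPM, with 2 of 7 at 0 in every library. In libraries from many cells, fewer cells expressing a gene and less RNA per cell cannot be told apart.

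The pathway was strongly expressed in control cells. The authors' cRPKM, reads per kilobase of mappable length per sequencing depth, allows genes of different length to be compared, and is given for the second experiment as the authors' mean of both controls. Scd2, a stearoyl-CoA desaturase of the brain, was highest at 561, and stood at 568 in the control of the first experiment. Acly, which makes cytosolic acetyl-CoA from citrate, was at 272 and 306 cRPKM, and Fdps, which makes farnesyl diphosphate, at 240 and 409. Fads2, the delta-6 desaturase, was at 177 and 138 and Fasn, the fatty acid synthase, at 141 and 168. Acly and Fdps, and likewise Fads2 and Fasn, changed places between experiments. In the second experiment's controls 20 of the 30 members lay above the 90th percentile of all genes. The least abundant were Tm7sf2, a sterol reductase (10.3), Insig2 (8.13) and Scd1, the liver and fat desaturase (0.495).

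**Figure D1:**
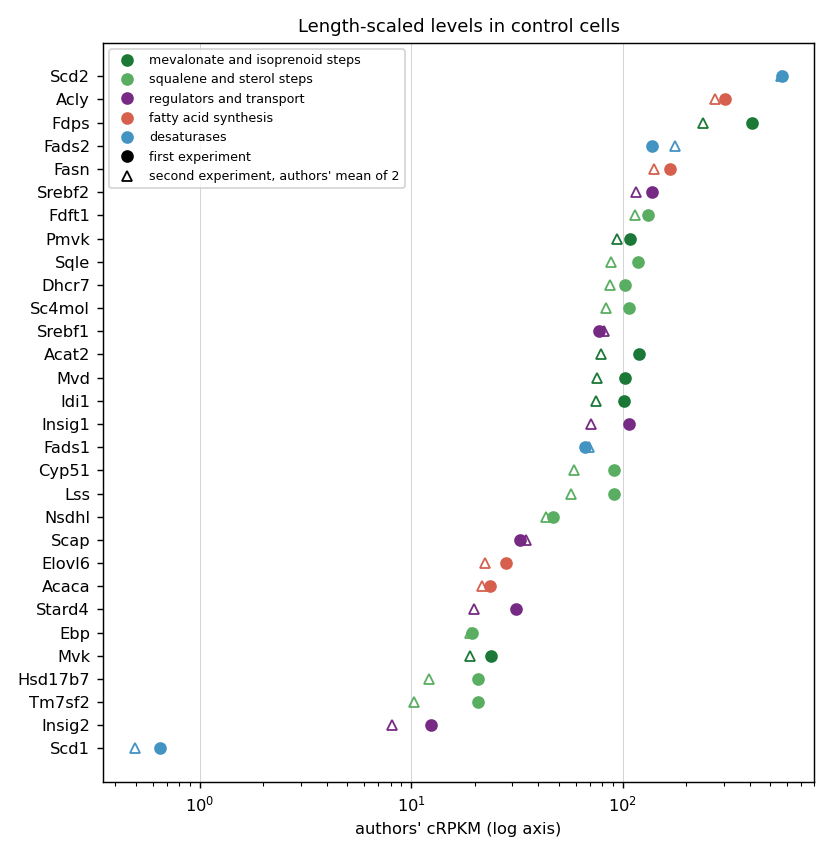
Level of each member in control cells, as the authors' cRPKM on a log axis, with colour for the role, filled circles for the control of the first experiment and open triangles for the authors' mean of the second experiment's controls. Scd2 lies near 561 and Scd1 near 0.495, and Fdps, at 240 and 409, is among the members that differ most between experiments.

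As a group the members took 0.981% and 0.991% of all counts in the second experiment's controls. They took 0.895% and 0.888% after Srrm4 knockdown and 0.892% and 0.911% after Zfp871 knockdown, so both knockdown groups lay below both controls. In the first experiment the share was 1.15% in the control, 0.901% after Mbnl1 and Mbnl2 knockdown and 1.003% after Nacc1 knockdown. Few highly expressed members weigh most in such a share, and the genes are described one by one below.

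After Srrm4 knockdown the one member that passed the test was Acly, which fell. Acly was at 1174 and 1191 CPM in the controls and at 863 and 782 after Srrm4 knockdown. The groups did not overlap, and both knockdown libraries were low. The log2 fold change was -0.52 (SE 0.087, edgeR quasi-likelihood test, adjusted p = 0.033). With 1 of the 6 libraries left out in turn the fold change was -0.60 to -0.45 and the adjusted p 0.0668 to 0.216, so leaving out any 1 of them lost the call. DESeq2 gave an adjusted p of 9.99e-07.

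Across all 12378 genes tested, 4.7% were called after Srrm4 knockdown, 3.29% lower and 1.41% higher. The 30 members all passed the count filter, with 1 called lower and 0 higher. With the letters a and b of the files added to the fit as a block, 13 members (11 lower, 2 higher) and 4565 genes were called. The labels do not say that the letters pair libraries. Over all tested genes, however, the difference of letter b from letter a correlated between groups at 0.637 to 0.749. The main fit leaves this shared difference in the spread between libraries. The members' median log2 fold change was -0.14, against 0.00 over all genes, and 22 of 30 were below 0. At an unadjusted p under 0.05 there were 10 members lower and 1 higher, against 13.5% and 11.3% of all genes. Groups did not overlap for 16 members on the lower side and 2 on the higher (Scap and Scd2), against 26.5% and 27.3% of all genes.

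All 6 mevalonate and isoprenoid genes had estimates below 0 after Srrm4 knockdown, with a median of -0.13 and none called. Idi1, the isomerase of isopentenyl diphosphate, was at 205 and 217 CPM in the controls and 140 and 173 after Srrm4 knockdown, with no overlap. Its estimate was -0.43 (SE 0.12, edgeR adjusted p = 0.087). The other 5 lay between -0.25 (Acat2, a thiolase acting ahead of the mevalonate steps) and -0.11 (Mvd, the decarboxylase).

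Of the 10 squalene and sterol genes 8 were below 0, with a median of -0.19 and none called. Tm7sf2 was at 16.6 and 12.5 CPM in the controls and 8.73 and 6.08 after Srrm4 knockdown, the largest estimate in size among the members at -0.98 (SE 0.26, edgeR adjusted p = 0.080). Both knockdown libraries were below both controls. Sqle, the squalene epoxidase, was at 242 and 233 CPM in the controls and 202 and 212 after knockdown, also without overlap (-0.20, SE 0.087, edgeR adjusted p = 0.227). Cyp51 (0.04), the lanosterol demethylase, and Dhcr7 (0.08), which completes cholesterol, had estimates above 0.

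Among the regulators the estimates pointed both ways. Srebf2, the sterol pathway's transcription factor, was at 599 and 543 CPM in the controls and 444 and 389 after Srrm4 knockdown, without overlap (-0.45, SE 0.11, edgeR adjusted p = 0.070). Scap, which escorts the factors to the Golgi, was at 123 and 127 CPM in the controls and 154 and 151 after knockdown, with both knockdown libraries above both controls (0.29, SE 0.091, edgeR adjusted p = 0.121). Srebf1, the factor tied to fatty acid genes, was at 329 and 352 CPM against 315 and 293 (-0.16). Insig1, a retention protein, was at 182 and 188 CPM against 176 and 214 (0.08), overlapping. Insig2 had the highest estimate of the members (0.36, edgeR adjusted p = 0.538). Its log2 difference of letter b from letter a was -0.76 in the controls and -0.54 after Srrm4 knockdown. Stard4 was at -0.39 (edgeR adjusted p = 0.175).

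Fatty acid synthesis genes other than Acly did not pass. Elovl6, an elongase, was at 121 and 139 CPM in the controls and 97.6 and 105 after Srrm4 knockdown, without overlap (-0.36, SE 0.10, edgeR adjusted p = 0.091). Fasn was at 1046 and 1643 CPM in the controls, 1000 and 1425 after Srrm4 knockdown and 894 and 1336 after Zfp871 knockdown. For Fasn the library of letter b was the higher in each group, by more than the groups differed. Scd2 was nearly level, at 2721 and 2777 CPM against 2794 and 2813 (0.03). Scd1 had 35 to 141 counts per library and its estimate (0.08, SE 0.60) says little.

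After Zfp871 knockdown no member was called, against 2.89% of all genes (2.14% lower, 0.751% higher). This depends on the fit: with the files' letters as a block, 15 members (13 lower, 2 higher) and 3854 genes were called. The labels do not say that the letters pair libraries. Same-letter libraries of the controls and the Zfp871 knockdown nevertheless deviated together, with a correlation of 0.662 over all tested genes. By the edgeR test 8 members were lower and 2 higher at an unadjusted p under 0.05, against 11.6% and 9.47% of all genes. DESeq2 called 4 of the 30 members (Fads2, Fdps, Srebf1 and Tm7sf2, each lower), and 1351 of all 12378 genes that passed the filter. The members' median was -0.20, against -0.01 over all genes, with 26 of 30 below 0. Groups did not overlap for 18 members on the lower side and 2 on the higher, against 25.5% and 25% of all genes. In simulated data with 2 libraries a group the gene test called few small changes. The simulation used a common spread for all genes and no shared letter deviation, so it does not give this test's sensitivity here. A member that was not called may still differ.

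Srebf1 had the largest estimate for its error after Zfp871 knockdown. It was at 329 and 352 CPM in the controls and 216 and 254 after knockdown, both low and without overlap (-0.54, SE 0.11, edgeR adjusted p = 0.061). Fads2 was at 273 and 234 CPM in the controls and 181 and 190 after knockdown, again without overlap (-0.45, SE 0.10, edgeR adjusted p = 0.075). Fdps was at 285 and 282 CPM against 230 and 231 (-0.30, SE 0.076, edgeR adjusted p = 0.098). The replicates of Fdps lay closer together than the groups.

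Tm7sf2 was at 9.09 and 6.83 CPM after Zfp871 knockdown (-0.87, SE 0.25, edgeR adjusted p = 0.124), below both controls. Acat2 was at 63.3 and 59.0 CPM against 75.6 and 71.8 (-0.27), and Dhcr7 at 194 and 195 against 261 and 220 (-0.31), both without overlap. Of the 10 squalene and sterol genes 9 were below 0, and all 4 desaturases were. The 2 members whose knockdown libraries both lay above both controls were Idi1, at 272 and 261 CPM (0.34, SE 0.12, edgeR adjusted p = 0.179), and Acly, at 1395 and 1388 CPM (0.23, SE 0.086, edgeR adjusted p = 0.195).

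**Figure D2:**
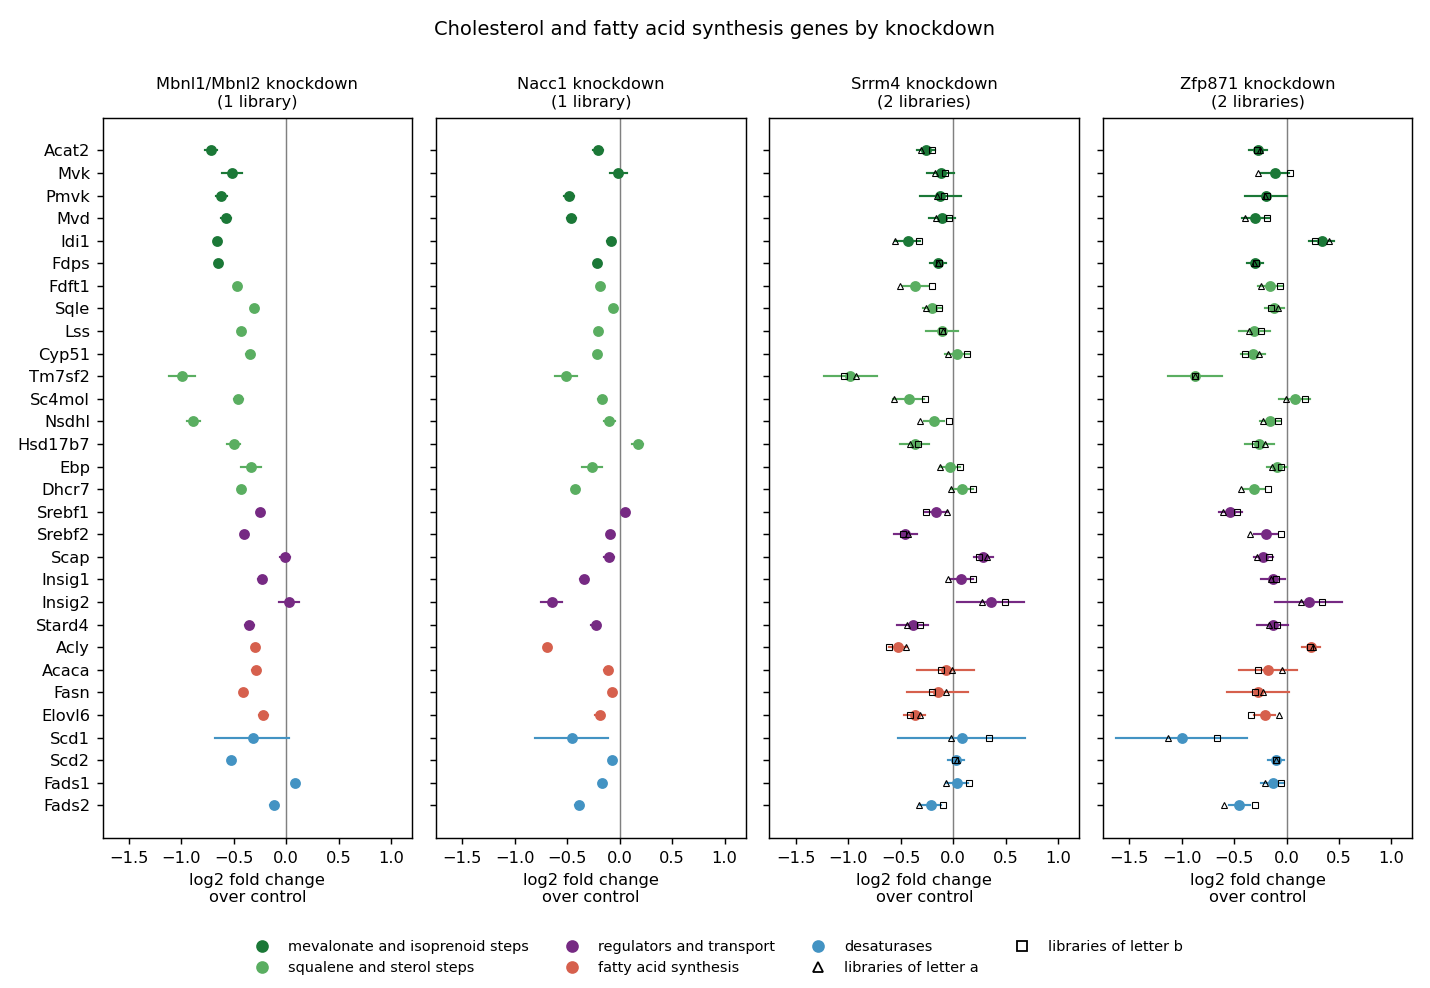
Log2 fold change of each member over its control, in 4 panels by knockdown and coloured by role. Bars are 95% counting intervals in the single-library panels and 1 SE in the replicated ones, and open symbols are the changes within letter a and letter b. In the Mbnl1 and Mbnl2 panel 28 of 30 points lie left of 0, and Acly and Idi1 lie on opposite sides of 0 in the Srrm4 and Zfp871 panels.

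The authors' deposited table, from their own edgeR analysis, gave 4 members a false discovery rate under 0.05 after Srrm4 knockdown: Acly (0.00217), Tm7sf2 (0.0249), Srebf2 (0.0275) and Idi1 (0.0489). After Zfp871 knockdown the authors' deposited table gave 2, Srebf1 (0.0077) and Fads2 (0.0342). That table called 6.9% and 5.03% of its 15035 genes in these 2 comparisons.

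The direct comparison of the 2 knockdowns tests whether their levels differ without reference to the control. Of all genes 11.1% were called, 5.53% higher and 5.57% lower in the Zfp871 libraries. Of the members 2 were higher in the Zfp871 libraries, Acly and Idi1, and 1 was lower, Scap. With the letters as a block 13 members (8 lower, 5 higher) and 5191 genes were called. Acly differed by 0.76 on the log2 scale (SE 0.087, edgeR adjusted p = 0.011), Idi1 by 0.77 (SE 0.12, edgeR adjusted p = 0.018) and Scap by -0.51 (SE 0.091, edgeR adjusted p = 0.025). For each of these 3 the control libraries lay between the 2 knockdown groups, without overlap.

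The members around these 3 did not move as a block in the direct comparison. Their median was -0.09, with 18 below 0 and 12 above. Groups did not overlap for 12 members on the lower side and 7 on the higher, against 30.3% and 29.1% of all genes, and 4 were lower and 3 higher at an unadjusted p under 0.05, against 14.6% and 14.7%. Dhcr7 (-0.39, edgeR adjusted p = 0.063), Srebf1 (-0.38, edgeR adjusted p = 0.076) and Sc4mol, the sterol methyl oxidase (0.50, edgeR adjusted p = 0.078), came next by size over error. Sc4mol was at 127 and 120 CPM after Srrm4 knockdown and 187 and 163 after Zfp871 knockdown, while its controls spanned 144 to 188. Calls for Acly were lost without Srrm4 library b (adjusted p = 0.0712), Zfp871 library a (0.0656) or Zfp871 library b (0.113) in edgeR. Idi1 was lost without the same 3 (0.0554, 0.0895 and 0.122), and Scap without any 1 of the 4 knockdown libraries (0.0889 to 0.122).

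**Figure D3:**
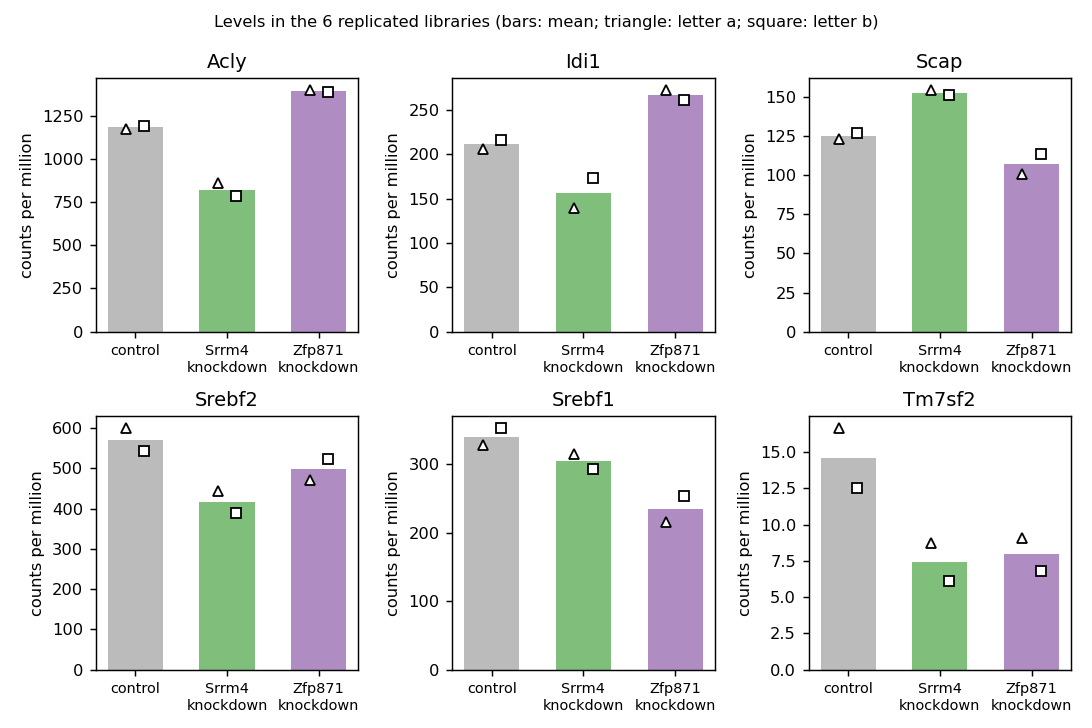
CPM of 6 members in the 6 libraries of the second experiment, with bars for the mean of 2 libraries and symbols for each library. Acly and Idi1 are lowest after Srrm4 knockdown and highest after Zfp871 knockdown, Scap the reverse, and Tm7sf2 is low after both.

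After knockdown of Mbnl1 and Mbnl2 the pathway's genes were lower almost throughout. With 1 library a group there is no test, and intervals cover counting error only. Of the 30 members 28 were below the control, with a median log2 fold change of -0.41 against -0.01 over all genes. At least 1.5-fold lower were 6 members, against 2.2% of the 11604 genes compared, and 0 members were as much higher, against 3.06% (5.26% in either direction). Both comparisons of this experiment share that 1 control library.

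All 6 mevalonate and isoprenoid genes lay between -0.71 and -0.52 after this knockdown, a narrow range. Acat2 was at 69.0 CPM against 113 in the control (-0.71), Idi1 at 184 against 290 (-0.66) and Fdps at 313 against 491 (-0.65). Pmvk (-0.62), the phosphomevalonate kinase, was the fourth of this role past 1.5-fold. All 10 squalene and sterol genes were below the control as well, from -0.99 to -0.31. Tm7sf2 was at 15.0 CPM (exact Poisson 95% interval 14.0 to 16.1) against 29.96 (28.6 to 31.3). Nsdhl, a sterol dehydrogenase, was at 54.5 CPM (52.5 to 56.6) against 100.8 (98.3 to 103).

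Regulators differed less. Srebf2 was at 525 CPM against 693 (-0.40), Srebf1 at 278 against 330 (-0.25) and Insig1 at 240 against 283 (-0.23). Scap stood at 118 against 119 CPM (-0.01) and Insig2 at 33.8 against 33.2 (0.03), and the counting intervals of each overlapped. With library sizes alone Scap was at 0.05, and the median of all genes moved by as much, from -0.01 to 0.05. Fasn was at 1219 CPM against 1620 (-0.41), Scd2 at 1957 against 2822 (-0.53), Sqle at 261 against 323 (-0.31) and Scd1 at 2.21 against 2.77 (-0.32). The highest estimate was that of Fads1, the delta-5 desaturase, at 243 against 229 CPM (0.09).

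**Figure D4:**
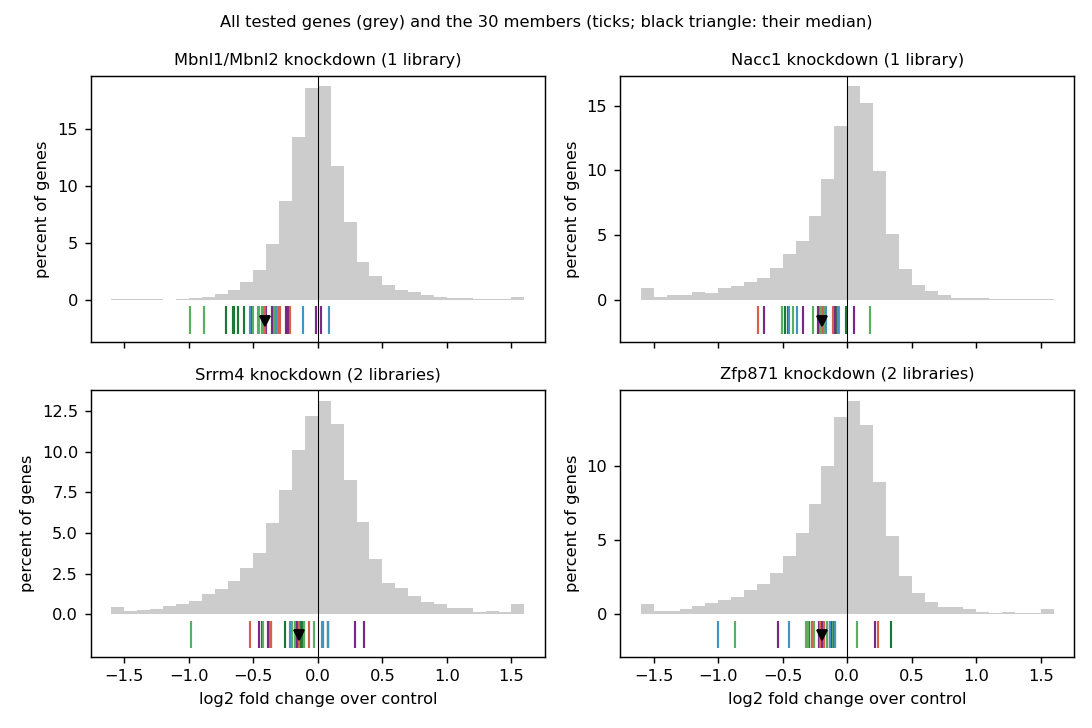
Distribution of log2 fold changes over all genes compared (grey bars, percent of genes, with values past 1.6 in the end bins) and of the 30 members (ticks below, coloured by role, with a black triangle at their median), by knockdown. The members' median lies at -0.41, -0.20, -0.14 and -0.20 in the 4 panels, left of 0 in each.

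After Nacc1 knockdown 28 of 30 members were again below the control, by less: the median was -0.20, against 0.01 over all genes. At least 1.5-fold lower were 2 members, against 8.27% of the 11580 genes compared, and 0 were as much higher, against 1.88% (10.2% in either direction). A share of 2 in 30 is near that background. The 2 were Acly, at 836 CPM against 1349 (-0.69), and Insig2, at 21.2 against 33.2 (-0.65). Tm7sf2 (21.1 CPM, -0.51) and Pmvk (89.9 CPM, -0.48) came next. Hsd17b7, a sterol ketoreductase, was at 108 against 95.5 CPM (0.17) and Srebf1 at 341 against 330 (0.05), the 2 members above the control. Srebf2 was at 648 CPM (-0.10), Sqle at 310 (-0.06), Fasn at 1541 (-0.07), Scd2 at 2684 (-0.07), Scap at 111 (-0.10), Insig1 at 223 (-0.34) and Scd1 at 2.02 (-0.45).

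Set directly against each other, the Nacc1 library was above the Mbnl1 and Mbnl2 library for 23 of 30 members, with a median of 0.20 against 0.03 over all genes. All 6 mevalonate and all 10 sterol genes were above, though Dhcr7 differed by 0.01, and by -0.06 with library sizes alone, under which the median of all genes moved from 0.03 to -0.04. Nsdhl (0.79) and Hsd17b7 (0.67) were at least 1.5-fold higher, against 3.4% of genes, and Insig2 (-0.67) as much lower, against 10.1% (13.5% in either direction). Acly (-0.39), Fads2 (-0.27) and Fads1 (-0.25) were also lower in the Nacc1 library.

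Tm7sf2 and Acly show how differently 2 members behaved over the 4 knockdowns. Tm7sf2 had estimates of -0.99, -0.51, -0.98 and -0.87 after knockdown of Mbnl1 with Mbnl2, of Nacc1, of Srrm4 and of Zfp871. Acly had -0.30, -0.69, -0.52 and 0.23 in the same order. The first and the last pair each share their controls, so these are 4 values per gene from 2 sets of controls.

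In GENCODE on GRCm38, 532 exon bases (12.1%) of Tm7sf2 overlap exons of other genes. The largest overlap is with Vps51 on the same strand, so reads there may be split in the counting. The same holds for Fdps, with 26.7% of exon bases overlapped by other genes, the largest part by Gm43738. Among 50-base stretches of the transcripts, 39.1% of Acat2, 30.4% of Acaca, 26.5% of Fdft1 and 25.3% of Idi1 recur in other genes. The genes sharing most with them are Acat3, Gm5182, Ctsb and Gm13502, in this order. How far this affects the counted levels was not tested. Acly had no recurring stretch. Scap shared 9.96% with other genes, most often with 5830462I19Rik, which overlaps it on the opposite strand. Acly lies at chr11:100476353-100528000, Idi1 at chr13:8885501-8892451 and Scap at chr9:110333288-110384950 on that build.

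Genes beside the pathway gave a mixed picture. In sterol sensing, transport and storage 17 of 18 listed genes were tested. After Srrm4 knockdown 1 was called higher and 1 lower, against 1.41% and 3.29% of all genes. After Zfp871 knockdown 0 were called higher and 1 lower, against 0.751% and 2.14%. After Srrm4 knockdown Erlin2, a sterol-regulated membrane protein, rose from 119 and 124 CPM to 181 and 200 (0.65, edgeR adjusted p = 0.025), and Npc1, the lysosomal cholesterol exporter, fell from 59.8 and 58.9 to 43.5 and 41.7 (-0.48, edgeR adjusted p = 0.035). After Zfp871 knockdown Npc2, the partner of Npc1, fell from 113 and 107 CPM to 72.9 and 66.9 (-0.66, edgeR adjusted p = 0.030).

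Of 8 genes of isoprenoid branches, 1 was called after Zfp871 knockdown, against 2.89% of all genes. This was Pdss1, which makes the side chain of ubiquinone and fell from 45.2 and 57.4 CPM to 22.0 and 20.4 (-1.27, edgeR adjusted p = 0.023). None was called after Srrm4 knockdown, against 4.7% of all genes. Dhdds, which makes dolichol precursors, came nearest there (0.39, edgeR adjusted p = 0.066). Of 10 fatty acid oxidation genes all had estimates above 0 after Srrm4 knockdown, against 6187 of all 12378 genes, with a median of 0.23. None was called at an adjusted p, against 4.7% of all genes, and 3 were higher at an unadjusted p under 0.05, against 11.3%. Cpt1a, which admits fatty acids to mitochondria, was at 107 and 123 CPM against 85.2 and 87.1 (0.41, edgeR adjusted p = 0.063). Of 17 genes of fatty acid supply, elongation and use none was called after Srrm4 or Zfp871 knockdown, against 4.7% and 2.89% of all genes. In the direct comparison 3 isoprenoid branch, 2 oxidation, 3 sterol sensing and 1 supply gene were called lower in the Zfp871 libraries, against 5.57% of all genes. There 1 sterol sensing gene was called higher, against 5.53%.

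In the single-library experiment 2 of the 17 sterol sensing genes compared were at least 1.5-fold higher and 1 lower after Mbnl1 and Mbnl2 knockdown, against 3.06% and 2.2% of all genes. After Nacc1 knockdown 3 were higher and 2 lower, against 1.88% and 8.27%. Lipa, the lysosomal cholesterol esterase, was at 8.23 CPM after Mbnl1 and Mbnl2 knockdown and 6.55 after Nacc1 knockdown, against 3.75. Abca1, the cholesterol exporter, was at 11.3 and 10.8 CPM against 6.70. Both were at least 1.5-fold above the control after either knockdown. Erlin2 was as much higher after Nacc1 knockdown (194.6 against 129 CPM). Past that fold on the lower side were Npc2 (72.2 against 128 CPM) and Soat1, which esterifies cholesterol (3.80 against 6.41 CPM), after Nacc1 knockdown, and Mylip, a ubiquitin ligase of the sterol response (4.98 against 7.63 CPM), after Mbnl1 and Mbnl2 knockdown. Of 16 genes of fatty acid supply, elongation and use 1 was as much lower after Mbnl1 and Mbnl2 knockdown (Lpin1, a phosphatidate phosphatase, -0.59) and 3 after Nacc1 knockdown, and none higher. Lpin1 was at -0.86 after Nacc1 knockdown. Slc25a1, the mitochondrial citrate carrier that feeds Acly, was at 91.6 CPM after Nacc1 knockdown against 155 (-0.76), and Acss2, which makes acetyl-CoA from acetate, at 53.9 against 99.1 (-0.88).

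Splicing of the members was read as percent spliced in (PSI), the inclusion reads of a segment over all its informative reads. In the second experiment 37 cassette exons of 18 member genes, 59 introns of 20 and 43 alternative splice sites of 12 were tested, and none was called. Over all genes 0.123% of 20267 exons were called after Srrm4 knockdown and 0% after Zfp871 knockdown, with 0% of 28110 introns and 0% of 21126 alternative sites. At an unadjusted p under 0.05 there were 4 member exons, 1 intron and 1 alternative site after Srrm4 knockdown, against 5.71%, 6.04% and 6.04% over all genes. After Zfp871 knockdown there were 3, 2 and 1, against 4.67%, 6.2% and 7.63%, and between the knockdowns 1, 2 and 2, against 5.33%, 5.15% and 7.81%. In simulated data with the spread of these libraries, large changes were estimated at their true size but none passed the adjusted threshold, so the absence of calls does not show that splicing was the same.

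The 4 exons and introns with the largest differences and separate groups after Zfp871 knockdown are therefore given as values, with mm9 coordinates. Larger differences were measured at alternative sites on few reads, up to 66.9 points for an Acaca acceptor after Srrm4 knockdown, on 13 to 25 reads. A 38-nt exon of Mvk, the mevalonate kinase (chr5:114894661-114894698), had a PSI of 24.0 and 24.2 in the controls, 18.3 and 15.0 after Srrm4 knockdown and 8.14 and 19.1 after Zfp871 knockdown, on 53 to 80 reads. A 152-nt intron of Elovl6 (chr3:129235414-129235565) was at 35.6 and 38.7, then 29.5 and 25.1, then 24.7 and 27.8. A 167-nt exon of Insig2 (chr1:123203717-123203883) was at 94.2 and 98.3 in the controls, 93.1 and 89.9, then 86.7 and 87.2. In these 3 events all 4 knockdown libraries were below both controls. For the Zfp871 libraries the separation follows from how the events were chosen, and the Srrm4 libraries are set against the same controls. How often this pattern occurs among all events was not tested. A 2112-nt intron of Tm7sf2 (chr19:6064199-6066310) was at 26.7 and 25.6 in the controls and 32.7 and 49.3 after Zfp871 knockdown, on 49 to 109 reads. The spread between those 2 knockdown libraries exceeded the distance of their mean from that of the controls. The same held for the 2 Zfp871 libraries of the Mvk exon.

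In the first experiment 36 exons of 21 member genes, 22 alternative sites of 8 and 130 introns of 24 had the required reads. Over all genes, 20 points with separate counting intervals were passed by 1.1% of exons, 0.22% of alternative sites and 0.247% of introns after Mbnl1 and Mbnl2 knockdown, and by 1.03%, 0.147% and 0.252% after Nacc1 knockdown, with no member event among them. Between the 2 knockdowns 0.766%, 0.186% and 0.222% passed, among them 1 member event. This was a 197-nt exon of Tm7sf2 (chr19:6067123-6067319), with a PSI of 70.4 after Nacc1 knockdown (exact 95% interval 61.6 to 78.4, 122 reads) against 48.4 after Mbnl1 and Mbnl2 knockdown (36.9 to 60.6, 74 reads) and 50.6 in the control. A 30-nt exon of Acly (chr11:100364474-100364503), singled out after its values were seen for its read depth, was at 75.7 after Mbnl1 and Mbnl2 knockdown (74.1 to 77.2) and 84.3 in the control (83.3 to 85.3). In the second experiment that exon was at 82.8 and 81.7 in the controls and 79.5 and 77.3 after Zfp871 knockdown (edgeR adjusted p = 0.888). Its own values after Srrm4 and Nacc1 knockdown are not given here. Mean PSI of the member exons tested, this one among them, differed from the controls by -7.465 to 7.615 points after Srrm4 knockdown.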

How the data were processed

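PolyA RNA of 9 libraries in 6 groups was analysed. The deposited tables hold raw counts per gene, the authors' cRPKM (an RPKM corrected for mappability), their log2 fold changes and their false discovery rates (adjusted p-values) from edgeR, and percent spliced in with its reads from vast-tools, per the file headers and the series' design text. The build is mm9 and CASAVA 1.8 and edgeR are listed, per the submitters' processing notes; the sources used here do not give the aligner. Value columns that matched no sample, or that gave a second measure for a library known only by its group, numbered 14 and were not used, so PSI of the second experiment was computed from the deposited reads. The labels name either of a pair of RNA extraction kits without saying which library had which, so its part was not tested.

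The members and lists were chosen with earlier results of these data known. Counts of the second experiment were tested by edgeR 4.0.16 under R 4.3.3, in 1 fit of 6 libraries (quasi-likelihood, filterByExpr, TMM scaling), and adjusted over all 12378 genes tested; a call is an adjusted p under 0.05. Introns and alternative sites were tested with limma 3.58.1 on logit PSI with an offset of 1, exons with edgeR on inclusion and exclusion reads (at least 10 per library), and a call also needed 10 points. The test of alternative sites was added after the data were seen. The first experiment has 1 library a group: log2 differences of TMM-scaled CPM with a prior count of 2, genes with at least 50 counts in either library, a fold of 1.5, and for splicing 20 points with separate exact 95% intervals on at least 20 reads. Total counts were 44186088 to 63715449. Libraries of the second experiment carry letters a and b in the files. Named were members called, up to 6 by estimate over error in each replicated contrast, the 4 with the largest fold in each direction in the others, and 9 fixed genes. The tests were tried on simulated data. Alternatives were DESeq2 1.42.0, other scalings and filters, each library left out, and the letter as a block.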

Additional observations from a re-analysis of the deposited data

Results flagged for a closer look

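A difference between the 2 replicated knockdowns, tested directly, was found for 3 members. The log2 fold change of the Zfp871 over the Srrm4 knockdown was 0.76 for Acly, 0.77 for Idi1 and -0.51 for Scap, with edgeR adjusted p-values of 0.011, 0.018 and 0.025. Each group had 2 libraries, and in each gene both libraries of one knockdown lay above both of the other. Such separation was common, with 29.1% of all genes higher and 30.3% lower in both Zfp871 libraries. Each of the 3 calls was lost when certain single libraries were left out. Groups of 2 are too small for a check of single outlying libraries.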

How the results depend on the processing

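No estimate summarised over the members changed sign in any alternative run. The files' letters do not match the labels' replicate numbers by any stated key, so a shared letter is not known to be a shared culture or day. Deviations of same-letter libraries correlated over genes at 0.749, 0.662 and 0.637. With the letter as a replicate block, 13 members were called after Srrm4 knockdown (11 lower, 2 higher), 15 after Zfp871 knockdown (13 lower, 2 higher) and 13 between the 2 (8 lower, 5 higher), with 4565, 3854 and 5191 of all genes. DESeq2 called 5, 4 and 7 members and 1747, 1351 and 2422 genes. In the main analysis these were 1, 0 and 3 members and 582, 358 and 1374 genes. Fitting only the 4 libraries compared gave 0, 0 and 5 members and 0, 178 and 1172 genes. With no filter on low counts 1 member, Srebf1, was called after Zfp871 knockdown.

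Leaving out each library in turn gave 0 to 0 members and 0 to 180 genes after Srrm4 knockdown, 0 to 0 members and 0 to 211 genes after Zfp871 knockdown, and 0 to 4 members and 0 to 1179 genes between them. Medians of the members then ran from -0.25 to -0.13, from -0.24 to -0.12 and from -0.089 to -0.042. An omitted library leaves a group of 1, assumed to vary like the others.

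In the first experiment library sizes alone gave medians of -0.34 after Mbnl1 and Mbnl2 knockdown and 0.14 for Nacc1 against Mbnl1 and Mbnl2 knockdown, while the medians of all genes moved as far, from -0.01 to 0.05 and from 0.03 to -0.04. A fold of at least 2 left 0, 0 and 0 members and 118, 391 and 548 genes, against 610, 1176 and 1561 at 1.5. With no filter 2718, 2861 and 3830 genes passed the fold. At 10 points 7 splicing events of members passed, against 1. The cause of the other shifts was not tested. Depth limits Scd1 most, at 35 to 174 counts.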

Other observations

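A 4-nt shift of an Acaca acceptor, singled out after its values were seen, had a PSI of 0.00 in both controls, 74.5 and 59.3 after Srrm4 knockdown, and 0.00 and 66.0 after Zfp871 knockdown. It rests on 13 to 25 reads a library (limma adjusted p = 0.726 and 0.790). An alternative donor of Fdps differed by -20.9 points after Zfp871 knockdown on 13 to 18 reads (limma adjusted p = 0.676). Nr1h3, an oxysterol receptor with 31 to 147 counts per library, was at 2.86 and 2.92 CPM after Zfp871 knockdown against 1.04 and 0.518 after Srrm4 knockdown (1.91, edgeR adjusted p = 0.029).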
